A study of Mus musculus with 6 samples.

Results

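The heat shock proteins and chaperonins are the protein-folding machinery of the cell, and their transcripts were followed in mouse brain tissue next to an intracerebral haemorrhage (ICH, bleeding into the brain). The genes were taken by symbol: Hsp genes of the classes a, b, d, e and h, Hsp90 genes, Dnaja, Dnajb and Dnajc genes, Cct2 to Cct8 and Tcp1, each annotated as a known gene and with at least 60 counts summed over the 6 libraries. Of 80 matching symbols, 69 reached 60 counts, out of 24459 genes in the deposited table. The rule itself used symbol, annotation and summed count and no group label, but it was set with earlier results of these data known.

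The tissue was the brain around the clot, taken on day 5 after ICH from mice labelled WT. The mice had been given TEPP-46, a compound that activates pyruvate kinase M2 (an enzyme of glycolysis), or vehicle on successive days after the bleed, so every library, control included, comes from a brain with a haemorrhage, and no uninjured brain was analysed here. There were 3 TEPP-46 libraries, headed T1, T2 and T3, and 3 vehicle libraries, headed C1, C2 and C4, made from total RNA with a nanopore cDNA-PCR kit. The labels do not state whether each sample of a group is its own animal, and the p-values therefore cover the spread among these samples alone, which may be technical.

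Chaperones bind unfolded or partly folded proteins and keep them from aggregating. HSP70 proteins work in cycles of ATP use that J proteins start and nucleotide exchange factors end, HSP90 proteins finish the folding of kinases and receptors, small heat shock proteins hold unfolded clients without ATP, and the chaperonins are closed ring chambers in the cytosol and in mitochondria. Heat shock factor 1 switches on the inducible members through heat shock elements, repeats of GAA and TTC in their promoters, while unfolded protein in the endoplasmic reticulum (ER) acts through ER stress elements. In brain, inducible HSP70 and HSP27 (Hspb1) are widely used as markers of stressed neurons, glia and vessels.

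The 69 genes comprised 3 HSP90 genes, 14 HSP70 and HSP110 genes, 4 small heat shock protein genes, 2 genes for proteins that bind heat shock proteins, 2 mitochondrial chaperonin genes, 7 cytosolic chaperonin genes and 37 J protein genes, of which 4 were in class A, 9 in class B and 24 in class C. The minimum left out 11 symbols: Dnajc25 and Dnajb3 stood just outside it with 49 and 48 counts, Hspb3, Hspb2, Dnajb13, Hspb7, Hspb9, Cct6b and Dnajc22 had between 39 counts and 1 count, and Dnajb7 and Dnajb8 had 0. Just inside it stood Hspa1l with 88 counts and Hspa12b with 109. Every one of the 69 genes passed the low-count filter of the test, which kept 14441 genes.

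Promoter sequences show which control elements these genes carry. RefSeq promoters on GRCm38.p6, from 250 bases before to 50 bases after each start, were on hand for 57 of the 69 genes, as 76 windows. Both strands were searched for a heat shock element of 2 units (GAA, any 2 bases, TTC), for one of 3 units (GAA, any 2 bases, TTC, any 2 bases, GAA), which contains the shorter motif, and for the ER stress element (CCAAT, any 9 bases, CCACG). The 3-unit element was found in 6 of the 76 windows (7.89%), from 4 of the 57 genes, and in 0.603% of all 32851 promoter windows searched. The 2-unit element was found in 15 windows (19.7%), from 13 genes, against 7.86% of all promoters. The ER stress element was found in 3 windows (3.95%), from 3 genes, against 0.119%. Windows overlap within Dnajb6, within Hsph1 and between Hspd1 and Hspe1, so in both heat shock counts the same bases entered more than once. A match is a description of the letters, not evidence that a factor is bound.

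The stretches before the starts of Hspa1a, Hspa1b and Hspb1 are shown because these are the classical inducible genes, with the 2-unit heat shock elements in capitals. They lie at chr17:34972157-34972306, minus strand, chr17:34959239-34959388, minus strand, and chr5:135887769-135887918, plus strand, and each covers the 150 bases before the start, 5′ to 3′.
Hspa1a: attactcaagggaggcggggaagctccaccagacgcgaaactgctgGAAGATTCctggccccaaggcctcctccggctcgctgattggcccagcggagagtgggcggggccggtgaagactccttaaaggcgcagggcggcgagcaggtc
Hspa1b: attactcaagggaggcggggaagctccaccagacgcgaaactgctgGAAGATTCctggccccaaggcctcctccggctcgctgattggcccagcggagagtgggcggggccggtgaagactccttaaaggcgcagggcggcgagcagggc
Hspb1: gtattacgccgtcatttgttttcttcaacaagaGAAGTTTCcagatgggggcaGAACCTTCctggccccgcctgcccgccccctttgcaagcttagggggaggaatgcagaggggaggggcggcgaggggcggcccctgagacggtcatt
The Hspa1a and Hspa1b stretches were identical at 149 of 150 bases (99.33%), and Hspb1 carried 2 such elements in its stretch.

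A site at the 5′ ends of Hspd1 and Hspe1 is shown because the promoter windows of both partners of the mitochondrial chaperonin hold it. The genes lie on opposite strands, and the 3-unit matches in the RefSeq window of Hspe1 and in one of the RefSeq windows of Hspd1 fall on the same bases. In GENCODE, where the 5′ ends of the genes overlap, the site lies before Hspe1 and inside Hspd1. The site, at chr1:55088054-55088081, is written on the plus strand, the strand of Hspe1, with the overlapping 3-unit elements in capitals.
Hspe1: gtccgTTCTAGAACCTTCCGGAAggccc
Besides this pair, Dnajb6 and Hsph1 held the 3-unit element.

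The ER stress element was found in Hspa5, Hsp90b1 and Dnajc3, which encode BiP (the HSP70 of the ER), GRP94 (the HSP90 of the ER) and a J protein of the ER. It is in capitals at chr2:34772020-34772048, plus strand, at chr10:86705510-86705594, minus strand, and at chr14:118937782-118937931, plus strand, each 5′ to 3′ on the strand of its gene. The Hsp90b1 window held the element at 2 places, of which the one nearer to the start is shown, in the reverse orientation from CGTGG to ATTGG, and the one that begins 212 bases before the start is not.
Hspa5: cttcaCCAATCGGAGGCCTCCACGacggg
Hsp90b1: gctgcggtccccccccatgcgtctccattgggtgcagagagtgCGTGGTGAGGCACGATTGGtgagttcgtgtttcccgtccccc
Dnajc3: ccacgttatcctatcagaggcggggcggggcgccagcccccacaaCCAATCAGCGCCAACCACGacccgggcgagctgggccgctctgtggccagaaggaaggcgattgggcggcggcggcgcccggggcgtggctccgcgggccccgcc

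The libraries held between 5286426 and 6025064 gene counts and between 18429 and 18985 genes with a count. Levels are given as CPM: each library's raw counts were put on a common depth by its own total. CPM is not divided by transcript length, so values are compared between libraries and not between genes. The summed CPM of 8 myelin markers was 5405 in C4 and between 13241 and 15439 in the others, that of 10 microglia and macrophage markers ran from 601 in C4 to 6431 in C2, and that of 6 choroid plexus and ependymal markers was 185 in C4, 222 in C2 and between 2252 and 4981 in the others. Markers of neurons (2517 to 3957), astrocytes (3566 to 4196) and endothelial and mural cells (106 to 141) varied less, as 7, 7 and 6 genes, and red cell markers ran from 319 in C4 to 1053 in C2. No marker was at 0 in all libraries, so markers of each of the 7 types were detected, and C4 and C2 stood apart in several of them. In bulk tissue, fewer cells of a type and less RNA per cell cannot be told apart.

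The comparison asks whether activating pyruvate kinase M2 changed the folding machinery of the injured tissue, and no chaperone gene differed between the groups after correction. The 69 genes together took 1.11%, 1.03% and 1.14% of counts in the vehicle libraries and 1.16%, 1.05% and 1.05% in the TEPP-46 libraries, so the groups overlapped. Their summed level was 10941 ± 524 CPM in vehicle and 10869 ± 632 CPM in TEPP-46 (SD, n = 3 each). In edgeR (quasi-likelihood test, Benjamini-Hochberg adjusted over all genes), 0 of 69 had an adjusted p under 0.05, where 0% of all 14441 tested genes did, and Hspa14 had the smallest, 0.834. DESeq2 also called 0 of 69, where it called 0.588% of the genes it adjusted.

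At an unadjusted p under 0.05 there was 1 of 69, Hspa14, where 5.93% of all tested genes passed. In the higher direction that is 1 of 69 against 1.88% of all genes, and in the lower direction 0 of 69 against 4.05%. DESeq2 found 0 of 69 at that level, where 3.94% of all genes passed. The median log2 fold change, TEPP-46 over vehicle, was -0.04 over the 69 genes and 0.01 over all tested genes. It was negative in 40 of the 69 (58.0%), and in 48.9% of all genes.

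The size of the differences is bounded by the intervals. The 95% interval of the fold change lay inside a 1.5-fold change in either direction for 45 of 69 genes, where 31% of all tested genes met that bound, and inside a 2-fold change for 59 of 69, where 68.7% did. Intervals narrow with the count, and the median level of these genes was 41.2 CPM against 15.2 CPM over all tested genes. For the 10 genes outside the 2-fold bound, which include Hspb1, Hspb6, Hspa1a, Hspa1b and Hspa12b, a change of 2-fold or more was inside the interval.

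**Figure D1:**
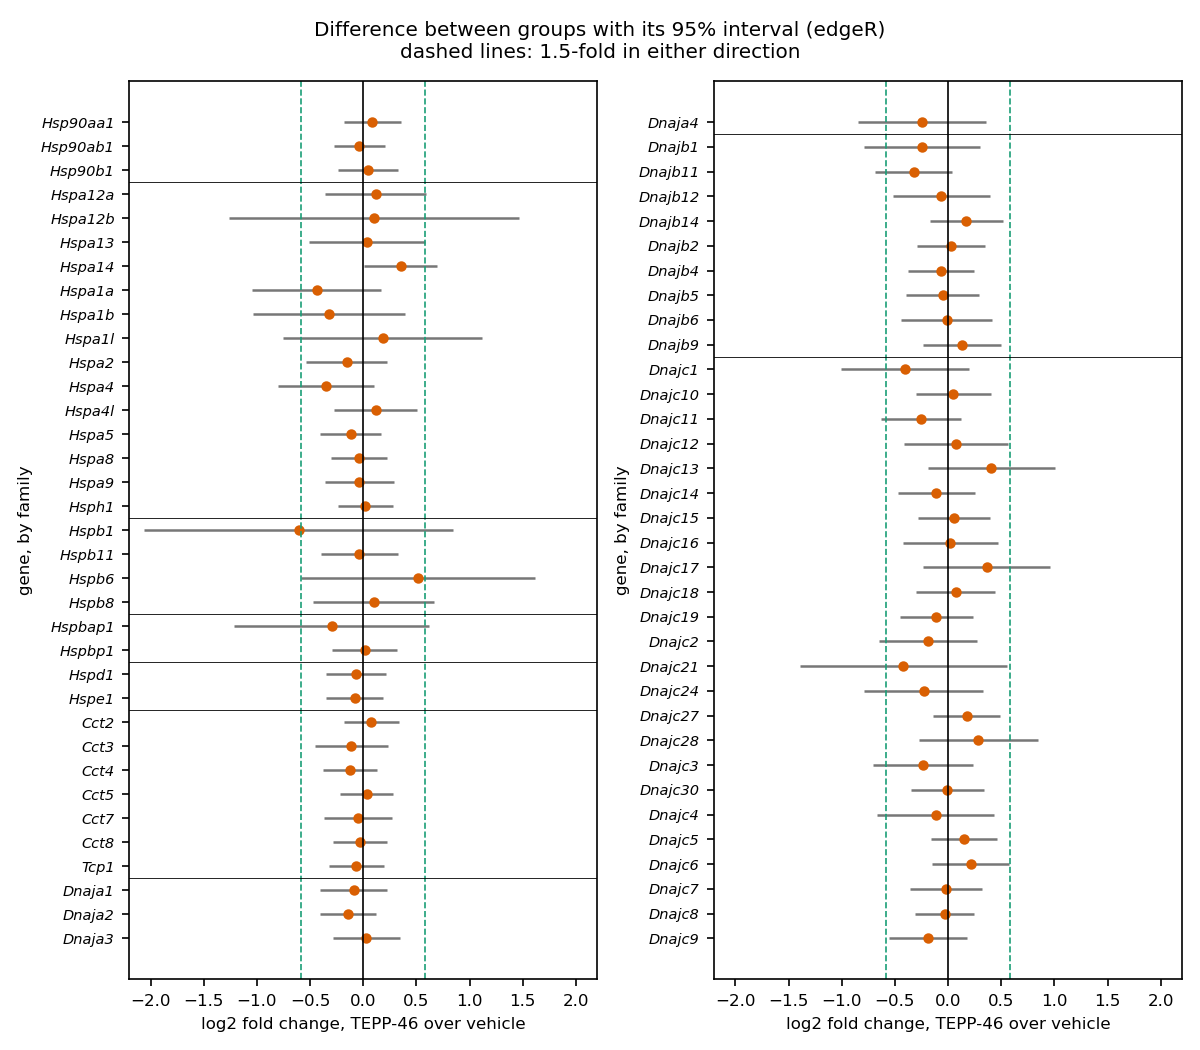
Log2 fold change (TEPP-46 over vehicle) of each of the 69 genes with its 95% interval from edgeR, grouped by family, where dashed lines mark a 1.5-fold change in either direction. The intervals of 45 genes stay between the dashed lines, that of Hspa14 is the only one that does not include 0, and that of Hspb1 reaches from -2.06 to 0.85.

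The HSP90 genes did not pass the test, and all 3 intervals stayed inside a 1.5-fold change. Hsp90aa1, the inducible cytosolic HSP90, was at 1133, 915 and 1101 CPM in vehicle and at 1159.5, 1179.7 and 1027 CPM in TEPP-46 (log2 fold change 0.09 ± 0.12 SE, 95% interval -0.18 to 0.35). Its lowest library was C2, and the groups overlapped. Hsp90ab1, the constitutive partner whose coding sequence matched that of Hsp90aa1 at 75.7% of aligned bases, was at 841, 799 and 781 CPM in vehicle and at 868, 753 and 759 CPM in TEPP-46, with a log2 fold change of -0.04 ± 0.11 (SE). Hsp90b1, whose promoter is shown above with its ER stress element, was at 124, 142 and 119.9 CPM in vehicle and at 139.6, 123 and 139 CPM in TEPP-46. Its log2 fold change was 0.05 ± 0.12 (SE), and again the groups overlapped.

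In the HSP70 and HSP110 family, 7 of 14 genes had positive and 7 negative log2 fold changes, with a median of -0.01. Hspa8, the constitutive cytosolic HSP70 that also strips clathrin coats from synaptic vesicles, was at 3151, 3001 and 3603 CPM in vehicle and at 3539, 3019 and 2999 CPM in TEPP-46. The high values were C4 and T1, 1 from each group, and the log2 fold change was -0.04 ± 0.12 (SE, 95% interval -0.31 to 0.22). Its sign turned without C4, to 0.04, and without T3, to 0.002.

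The stress-inducible pair Hspa1a and Hspa1b had negative log2 fold changes that did not pass the test. Hspa1a was at 6.37, 6.84 and 7.19 CPM in vehicle and at 5.97, 3.91 and 5.28 CPM in TEPP-46, from 34, 39 and 38 counts against 36, 22 and 28. Every TEPP-46 library was below every vehicle library, but the gap between C1 and T1 was 6.37 against 5.97 CPM, and the log2 fold change of -0.44 ± 0.27 (SE) did not pass (adjusted p = 0.936). Hspa1b was at 5.62, 5.96 and 9.08 CPM in vehicle and at 7.14, 5.34 and 4.14 CPM in TEPP-46, and these groups overlapped, with a log2 fold change of -0.32 ± 0.32 (SE). The coding sequences of the pair were identical at 1915 of 1926 aligned bases (99.43%), so the counting may have split reads between them and the 2 values are uncertain. Their sum avoids that split: it was 12.0, 12.8 and 16.3 CPM in vehicle and 13.1, 9.25 and 9.42 CPM in TEPP-46, which is 13.7 ± 2.27 against 10.6 ± 2.18 CPM (SD, n = 3 each), and T1 lay inside the vehicle range.

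Hspa1l, the third gene of that cluster, starts 547 bases from Hspa1a on the opposite strand and had 16, 7 and 17 counts in vehicle and 19, 15 and 14 in TEPP-46. Its coding sequence matched Hspa1a at 82.9% of aligned bases, and that of Hspa2 at 78.2%, further apart than Hspa1a and Hspa1b are. Hspa2, best known from testis, was at 40.1, 29.7 and 32.7 CPM in vehicle and at 32.5, 27.4 and 32.8 CPM in TEPP-46.

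The organelle forms of HSP70 overlapped between the groups. Hspa5 (BiP), which carries the ER stress element printed above, was at 236, 269 and 300 CPM in vehicle and at 267, 250 and 232 CPM in TEPP-46, with a log2 fold change of -0.12 ± 0.13 (SE, 95% interval -0.41 to 0.17). Hspa9, mortalin, which pulls proteins into mitochondria, was at 94.9, 81.4 and 69.2 CPM in vehicle and at 77.5, 83.9 and 79.7 CPM in TEPP-46. The TEPP-46 libraries of Hspa9 all lay inside the vehicle range, and the log2 fold change was -0.04 ± 0.14 (SE). Hspa13, an HSP70-like protein of the ER, was at 20.2, 18.4 and 11.3 CPM in vehicle and at 16.8, 15.5 and 19.4 CPM in TEPP-46.

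The HSP110 proteins act as nucleotide exchange factors for HSP70, and Hspa4 varied most between libraries among them. It was at 189, 165 and 154 CPM in vehicle and at 92.6, 143 and 165 CPM in TEPP-46, with a log2 fold change of -0.35 ± 0.20 (SE, adjusted p = 0.919). T1 was the low library, T3 lay inside the vehicle range, and without T1 the log2 fold change was the smallest of the 6 with 1 library left out, at -0.14. Hspa4l was at 46.1, 38.9 and 33.1 CPM in vehicle and at 49.0, 38.1 and 42.0 CPM in TEPP-46. Hsph1 was at 185, 180.3 and 191 CPM in vehicle and at 206, 192 and 172 CPM in TEPP-46, so that all 3 vehicle libraries lay inside the TEPP-46 range (log2 fold change 0.02 ± 0.12 SE).

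Hspa14 had the smallest p of all 69 genes and the only interval that did not include 0. It encodes an HSP70-like protein that sits on ribosomes together with the J protein of Dnajc2, and it was at 27.2, 26.7 and 24.2 CPM in vehicle and at 35.02, 34.0 and 31.5 CPM in TEPP-46. All 3 TEPP-46 libraries were above all 3 vehicle libraries, with group means of 33.5 ± 1.82 against 26.0 ± 1.58 CPM (SD, n = 3 each). The log2 fold change was 0.35 ± 0.15 (SE, 95% interval 0.01 to 0.69), the unadjusted p was 0.0449 and the adjusted p by edgeR with Benjamini-Hochberg adjustment was 0.834, so the difference did not pass. In DESeq2 the unadjusted p was 0.103, and in the authors' deposited table it was 0.0974 with a log2 fold change of 0.28. Its partner Dnajc2 was at 47.6, 45.3 and 35.2 CPM in vehicle and at 29.1, 37.5 and 46.9 CPM in TEPP-46, which overlapped. The Hspa14 exons share bases with those of Gm45902 on the same strand (chromosome 2, 3488850 to 3512814), so its count may hold reads of that gene.

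The distant HSP70 relatives overlapped between the groups. Hspa12b, a gene of vascular endothelium, had 24, 13 and 14 counts in vehicle and 34, 4 and 20 in TEPP-46, so its highest and lowest libraries, T1 and T2, were both in the treated group and stood 7.84-fold apart in CPM. The endothelial and mural markers were at 110 CPM in T1 and 115 CPM in T2, and their part in the Hspa12b values was not tested. Hspa12a, a relative found in neurons, was at 48.9, 27.5 and 39.7 CPM in vehicle and at 47.8, 41.1 and 37.9 CPM in TEPP-46.

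**Figure D2:**
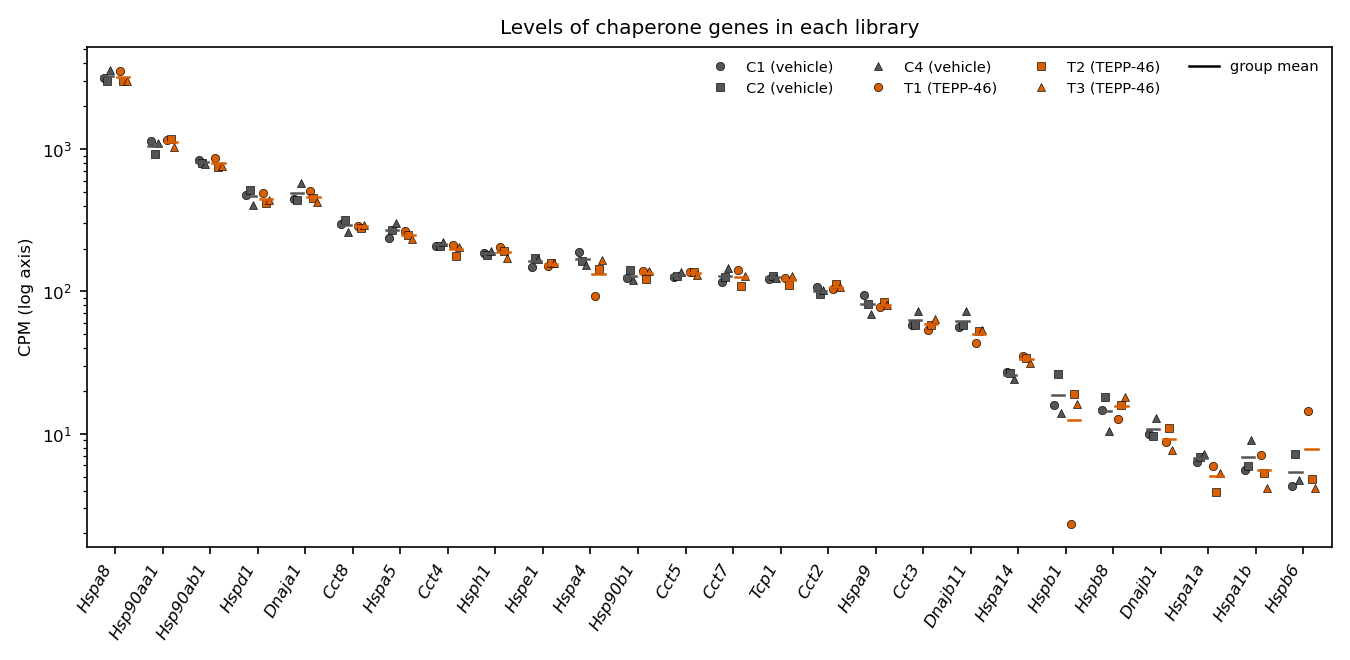
CPM on a log axis of 26 chaperone genes in each library (grey, vehicle; orange, TEPP-46; symbols tell the libraries of a group apart, bars are group means). The genes run roughly from high to low CPM, which is not scaled by length. For most genes the orange and grey points interleave. The Hspa14 groups stand apart, higher in TEPP-46, at 31.5 to 35.02 against 24.2 to 27.2 CPM. Those of Dnajb11 and Hspa1a stand apart, lower in TEPP-46, with nearest points at 53.9 against 56.6 and 5.97 against 6.37 CPM. T1 is the single low point of Hspb1 at 2.32 CPM and the single high point of Hspb6 at 14.4 CPM.

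The small heat shock proteins varied widely between libraries, and only 1 of 4 intervals, that of Hspb11, stayed inside a 1.5-fold change. Hspb1 (HSP27), which binds actin and unfolded clients and is induced in reactive astrocytes and vessels, was at 15.9, 26.5 and 14.0 CPM in vehicle and at 2.32, 19.0 and 16.2 CPM in TEPP-46. T1 alone was low, with 14 counts against 74 to 151 in the others, and T2 and T3 lay inside the vehicle range. The log2 fold change was -0.61 ± 0.62 (SE, 95% interval -2.06 to 0.85), and without T1 it was -0.11.

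Hspb6 (HSP20), known from smooth muscle and vessels, had its extreme in the same library but in the other direction. It was at 4.31, 7.19 and 4.73 CPM in vehicle and at 14.4, 4.80 and 4.14 CPM in TEPP-46, from 87 counts in T1 and 22 to 41 in the others. The log2 fold change was 0.52 ± 0.49 (SE, 95% interval -0.59 to 1.62), and T2 and T3 were within or below the vehicle range. Reads of Hspb6 may be shared with Gm38670 on the same strand and with Lin37 and Proser3 on the other, since the strand setting of the counting is not given in the sources used here. In T1, the summed endothelial and mural markers were 110 CPM, inside the range of the other libraries, and their part in the values of Hspb1 and Hspb6 was not tested.

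Hspb8, the partner of the co-chaperone Bag3 in clearing aggregates, was at 14.6, 18.1 and 10.4 CPM in vehicle and at 12.8, 15.8 and 18.1 CPM in TEPP-46, with a log2 fold change of 0.10 ± 0.25 (SE). Hspb11, named as a heat shock protein but known as a part of the transport trains of cilia, was at 42.5, 47.9 and 44.5 CPM in vehicle and at 37.7, 43.9 and 51.3 CPM in TEPP-46. The groups of both genes overlapped, and no library was far from the rest. Of the 2 proteins that bind heat shock proteins, Hspbp1, an exchange factor for HSP70, was at 122, 124 and 150.4 CPM in vehicle and at 150.2, 126 and 127 CPM in TEPP-46. Hspbap1, a binding partner of Hspb1, had 25, 38 and 29 counts in vehicle and 42, 12 and 25 in TEPP-46, with T2 lowest.

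The chaperonins were even across the libraries, with a highest library between 1.101 times (Cct5) and 1.38 times (Cct3) the lowest. The mitochondrial pair Hspd1 (HSP60, the ring) and Hspe1 (HSP10, its lid), whose site is printed above, had log2 fold changes of -0.07 ± 0.12 and -0.08 ± 0.12 (SE). Hspd1 was at 478, 511 and 406 CPM in vehicle and at 489, 418 and 439 CPM in TEPP-46, with all TEPP-46 libraries inside the vehicle range. Hspe1 was at 148, 173 and 169 CPM in vehicle and at 150.2, 158 and 159 CPM in TEPP-46, again inside it. The exons of the pair overlap on opposite strands, so a small share of reads could be counted for either gene.

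The cytosolic chaperonin is the ring that folds actin and tubulin, and the 7 of its subunits reported here had intervals inside a 1.5-fold change. The summed level of these 7 was 1056 ± 15.8 CPM in vehicle and 1035 ± 41.6 CPM in TEPP-46 (SD, n = 3 each). Cct4 had the most negative log2 fold change of the 7, at -0.12 ± 0.11 (SE), from 209, 210 and 222 CPM in vehicle and 210.3, 178 and 205 CPM in TEPP-46. Cct2 had the most positive, at 0.08 ± 0.12 (SE), from 107, 96.1 and 102 CPM in vehicle and 104, 113 and 107 CPM in TEPP-46. In both genes the groups overlapped.

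The other 5 of these subunits lay between these bounds. Cct8 was at 299, 315 and 263 CPM in vehicle and at 290.1, 279 and 295 CPM in TEPP-46. Cct5 was at 127, 129 and 138 CPM in vehicle and at 137, 137 and 131 CPM in TEPP-46. Cct7 was at 117, 125 and 145 CPM in vehicle and at 140.4, 109 and 128 CPM in TEPP-46. Together with Tcp1, the subunit that gave the complex its name, they differed between groups by less than the larger of their SDs within a group. Tcp1 was at 122, 129 and 125 CPM in vehicle and at 124, 111 and 127 CPM in TEPP-46. Cct3 was at 57.7, 58.2 and 72.8 CPM in vehicle and at 53.6, 58.3 and 64.3 CPM in TEPP-46, with C4 highest. These 5 had log2 fold changes from -0.11 (Cct3) to 0.03 (Cct5).

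J proteins deliver clients to HSP70 and start its ATP use, and they are described here by role. Dnaja1, the main class A partner of HSP70 in the cytosol, was at 448, 438 and 578 CPM in vehicle and at 509.7, 449.6 and 427 CPM in TEPP-46, with a log2 fold change of -0.09 ± 0.14 (SE). C4 was the high library, and without it the log2 fold change was 0.05. Dnajb1 (HSP40), the classical heat-inducible J protein, was at 9.93, 9.65 and 12.9 CPM in vehicle and at 8.80, 11.03 and 7.73 CPM in TEPP-46, which overlapped (log2 fold change -0.25 ± 0.24 SE).

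The ER J proteins included the gene with the second smallest p. Dnajb11, which works with BiP on newly made secretory proteins, was at 56.6, 57.9 and 72.5 CPM in vehicle and at 43.7, 53.0 and 53.9 CPM in TEPP-46. All TEPP-46 libraries were below all vehicle libraries, and the log2 fold change of -0.33 ± 0.16 (SE, 95% interval -0.69 to 0.04) had an unadjusted p of 0.0731 and an adjusted p of 0.882 in edgeR, so it did not pass. In the authors' deposited table its unadjusted p was 0.0876 and its log2 fold change -0.29. Dnajc3, with the ER stress element above, was at 25.1, 26.5 and 22.7 CPM in vehicle and at 16.1, 21.7 and 26.0 CPM in TEPP-46, and Dnajc1, a J protein of the ER membrane, was at 18.7, 13.2 and 12.5 CPM in vehicle and at 8.96, 9.78 and 15.1 CPM in TEPP-46. T3 of both genes lay inside the vehicle range, while T1 was the lowest library. Dnajb9 and Dnajc10, further partners of BiP, had log2 fold changes of 0.13 ± 0.16 and 0.05 ± 0.16 (SE), so the J proteins of the ER did not share a sign.

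Dnajc5, Dnajc6 and Dnajc13 act at synaptic vesicles, clathrin coats and endosomes, and none of them passed the test. Dnajc5, the cysteine string protein of synaptic vesicles, was at 332, 271 and 250.1 CPM in vehicle and at 358, 292 and 306 CPM in TEPP-46, with a log2 fold change of 0.15 ± 0.14 (SE). Dnajc6, the neuronal auxilin that recruits Hspa8 to clathrin coats, was at 359.9, 241 and 329.7 CPM in vehicle and at 403, 360.2 and 323 CPM in TEPP-46 (log2 fold change 0.21 ± 0.16 SE). In both genes C1 lay inside the TEPP-46 range. Dnajc13, a J protein of endosomes, was at 4.49, 6.84 and 5.86 CPM in vehicle and at 6.97, 8.36 and 7.73 CPM in TEPP-46, with a log2 fold change of 0.40 ± 0.26 (SE, adjusted p = 0.944). Its groups stood apart in this scaling by library totals and overlapped after edgeR's TMM scaling.

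Among the J proteins of mitochondria and the nucleus, Dnajc11, which belongs to the complex that shapes mitochondrial cristae, was at 24.7, 24.4 and 27.8 CPM in vehicle and at 20.8, 20.1 and 24.1 CPM in TEPP-46. All its TEPP-46 libraries were below all vehicle libraries, by as little as 24.1 against 24.4 CPM, and the log2 fold change was -0.26 ± 0.17 (SE, adjusted p = 0.943). Dnajc17, a nuclear J protein, was at 4.68, 7.54 and 6.62 CPM in vehicle and at 8.80, 8.18 and 7.54 CPM in TEPP-46, and Dnajc27, a J protein with a Rab-like domain, was at 65.0, 61.8 and 53.5 CPM in vehicle and at 71.2, 71.9 and 62.2 CPM in TEPP-46. Their log2 fold changes were 0.36 ± 0.26 and 0.17 ± 0.14 (SE), and 1 vehicle library of each reached the TEPP-46 values. Dnajc21, which helps mature the large ribosomal subunit, had 32, 14 and 49 counts in vehicle and 26, 26 and 23 in TEPP-46, so the vehicle libraries bracketed the treated ones. Dnajc7, a partner of both HSP70 and HSP90, was at 106, 127 and 147 CPM in vehicle and at 139, 117 and 121 CPM in TEPP-46, and its exons overlap those of the myelin gene Cnp on the other strand.

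The J proteins not yet named, from Dnaja2 to Dnajc9, all had groups that overlapped, with log2 fold changes between -0.24 (Dnaja4) and 0.29 (Dnajc28) and adjusted p-values of 0.973 or more in edgeR. Dnaja2, a cytosolic partner of HSP70, was at 115, 117 and 123 CPM in vehicle and at 106, 100.3 and 118 CPM in TEPP-46. Dnajb2, enriched in neurons, was at 89.3, 84.9 and 94.6 CPM in vehicle and at 85.8, 82.0 and 109 CPM in TEPP-46, so its vehicle libraries lay inside the treated range. Dnajc19 and Dnajc15, which drive protein import at the mitochondrial inner membrane, had log2 fold changes of -0.11 ± 0.15 and 0.06 ± 0.15 (SE).

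Read over families, the median log2 fold changes were 0.05 for HSP90, -0.01 for HSP70 and HSP110 and 0.03 for the small heat shock proteins. They were -0.14 for Hspbp1 and Hspbap1, -0.07 for the mitochondrial and -0.05 for the cytosolic chaperonin. J proteins of class A, B and C had medians of -0.12, -0.05 and -0.02. The 13 genes with a 2-unit heat shock element had a median of -0.07, with 8 negative, and the 44 with a promoter but without that element a median of -0.04, with 25 negative. For the 3-unit element the medians were -0.0395 over 4 genes with it, 3 of them negative, and -0.0362 over 53 without it, 30 of them negative. The 3 genes with an ER stress element had a median of -0.12, with 2 negative, and the 54 without it a median of -0.04, with 31 negative.

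On TMM-scaled CPM, 4 of 69 genes had groups that did not overlap, where 11.4% of all tested genes did. Hspa14 was the 1 gene higher in TEPP-46, where 5.21% of all genes were, and Dnajb11, Hspa1a and Dnajc11 were the 3 lower, where 6.22% were. Scaled by library totals alone, Dnajc13 joined the higher ones.

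Chaperone genes also varied little among the 6 libraries. The highest library was more than 2 times the lowest in 9 of 69 genes, where 36.3% of all tested genes passed that ratio, and the median ratio was 1.38 against 1.73 over all genes. Their median level was also higher, 41.2 against 15.2 CPM, and its part in the lower ratio was not tested. The 9 genes were Hspb1 (11.7-fold), Hspa12b (7.84-fold), Dnajc21 (3.75-fold), Hspb6 (3.49-fold), Hspbap1 (3.23-fold), Hspa1l (2.60-fold), Hspa1b (2.22-fold), Dnajc1 (2.09-fold) and Hspa4 (2.04-fold). C4 was the highest library for 20 of the 69 genes and the lowest for 13, where it was highest for 25.1% and lowest for 24.9% of all genes. T2 was the lowest for 17 and the highest for 6, where it was lowest for 12.5% and highest for 13.6% of all genes.

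**Figure D3:**
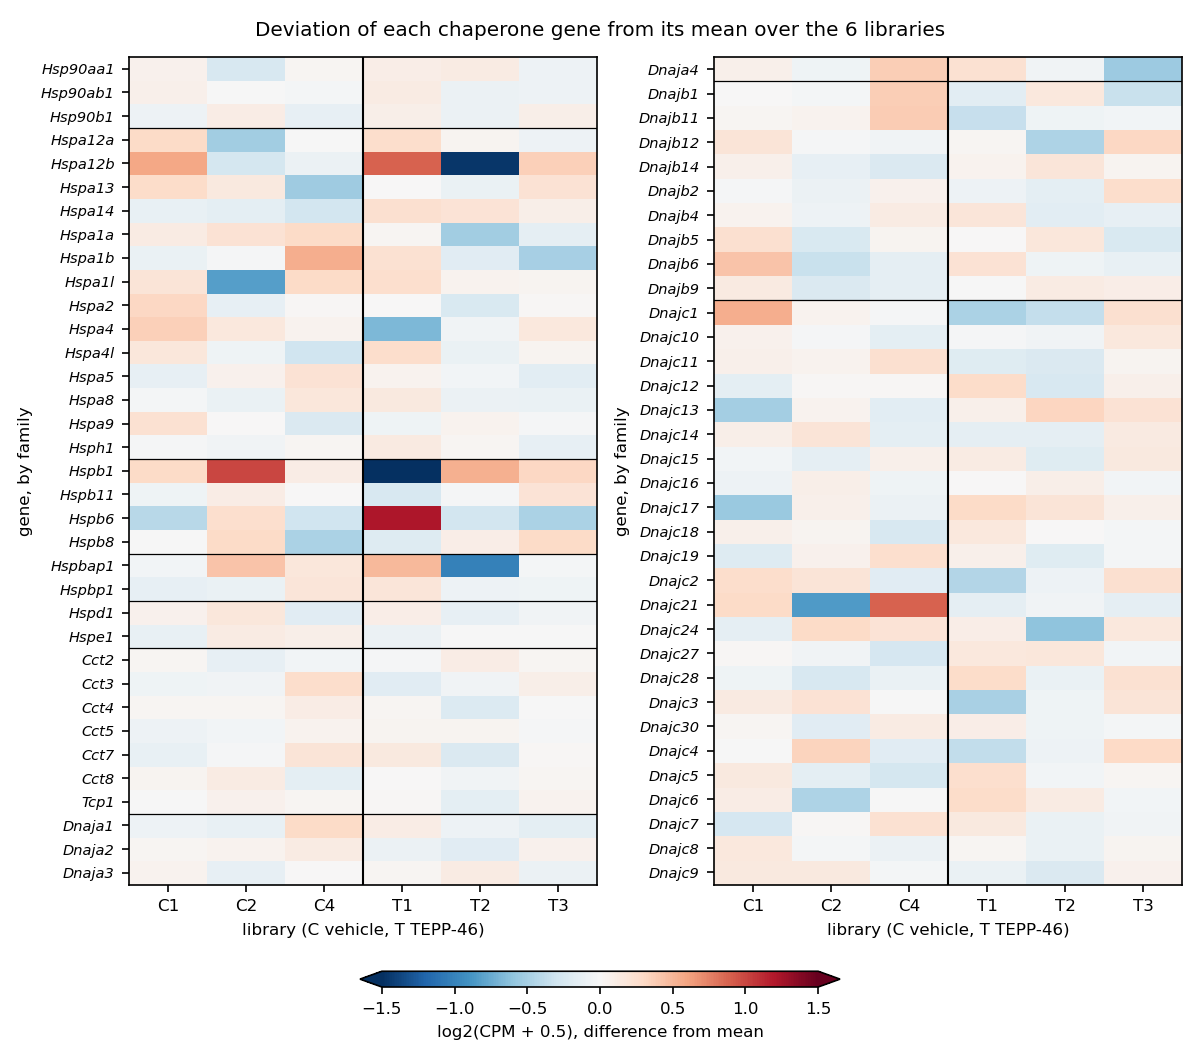
Deviation of each of the 69 genes from its own mean over the 6 libraries, in log2(CPM + 0.5), with rows grouped by family and vehicle libraries to the left of the vertical line. The cytosolic chaperonin rows are nearly white, and among the strongest cells are Hspb1 (low in T1, high in C2), Hspb6 (high in T1), Hspa12b (low in T2) and Dnajc21 (high in C4, low in C2).

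Long reads also gave counts for 283 isoforms of these genes, 60 of them new, and 199 were tested among 33854. By edgeR with Benjamini-Hochberg adjustment, 0 of 199 passed, where 0% of all tested isoforms did, with 0.779 the smallest adjusted p. With no adjustment, 3 of 199 had a p under 0.05, where 5.77% of all isoforms passed. Dnajb11-201, the main isoform of its gene, had 237, 277 and 321 counts in vehicle and 215, 219 and 227 in TEPP-46. A new Hspa14 isoform had 23, 20 and 20 counts in vehicle and 43, 31 and 28 in TEPP-46, and Dnaja1-209, under 1% of its gene's counts, had 10, 9 and 7 in vehicle and 17, 22 and 14 in TEPP-46. The groups of all 3 stood apart, but isoforms picked by a small p tend to have such groups, and the share among all isoforms was not counted. Dnajb11-201 and the Hspa14 isoform belong to genes already named, whose totals they are part of. Next in order came a new Hsph1 isoform, with 76, 71 and 56 counts in vehicle and 93, 98 and 85 in TEPP-46, and a new Dnajc9 isoform, with 34, 37 and 33 in vehicle and 27, 23 and 29 in TEPP-46.

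Isoform usage, the split of a gene's counts among its isoforms, could be tested in 47 of the genes. By edgeR's diffSpliceDGE with Simes p-values, 0 of 47 were called after adjustment, where 0.0131% of 7639 genes were. In edgeR's gene-level F test of usage, 2 of 47 genes had an unadjusted p under 0.05, where 1.94% of all genes did. These were Dnaja1 (unadjusted p = 0.0466) and Hsph1 (unadjusted p = 0.0470), and both had an adjusted p of 1. Hspa8 shows how even the split can be: Hspa8-201 took between 44.3% and 45.6% of the gene's counts in all 6 libraries.

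Dnajb6, which keeps polyglutamine proteins from aggregating, split its counts differently among libraries of the same group. Dnajb6-203, with 726 coding bases, encodes the short form and took 47.3%, 62.7% and 69.3% in vehicle and 51.3%, 54.1% and 59.8% in TEPP-46. Dnajb6-201, with 1095 coding bases, encodes the long form and had 366, 199 and 187 counts in vehicle and 335, 266 and 229 in TEPP-46. The gene total was highest in C1 (373 CPM) and T1 (321 CPM) and between 219 and 265 CPM in the others. Counts of Dnajb6-203 ran only from 783 to 991, so the high totals of C1 and T1 came with more counts of the other isoforms, such as Dnajb6-202, with 240, 87 and 75 in vehicle and 219, 147 and 94 in TEPP-46. The log2 fold change of the whole gene was -0.01 ± 0.19 (SE).

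The low T1 value of Hspa4 was uneven over its isoforms. A new isoform had 179, 165 and 103 counts in vehicle and 27, 120 and 150 in TEPP-46, which is 4.84% of the gene's counts in T1 and between 12.7% and 17.8% in the others. Hspa4-201 had 530, 507 and 440 counts in vehicle and 305, 433 and 474 in TEPP-46, so it too was lowest in T1. In Hspb1, both annotated isoforms were low in T1, where Hspb1-201 had 11 counts against 60 to 119 in the others.

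**Figure D4:**
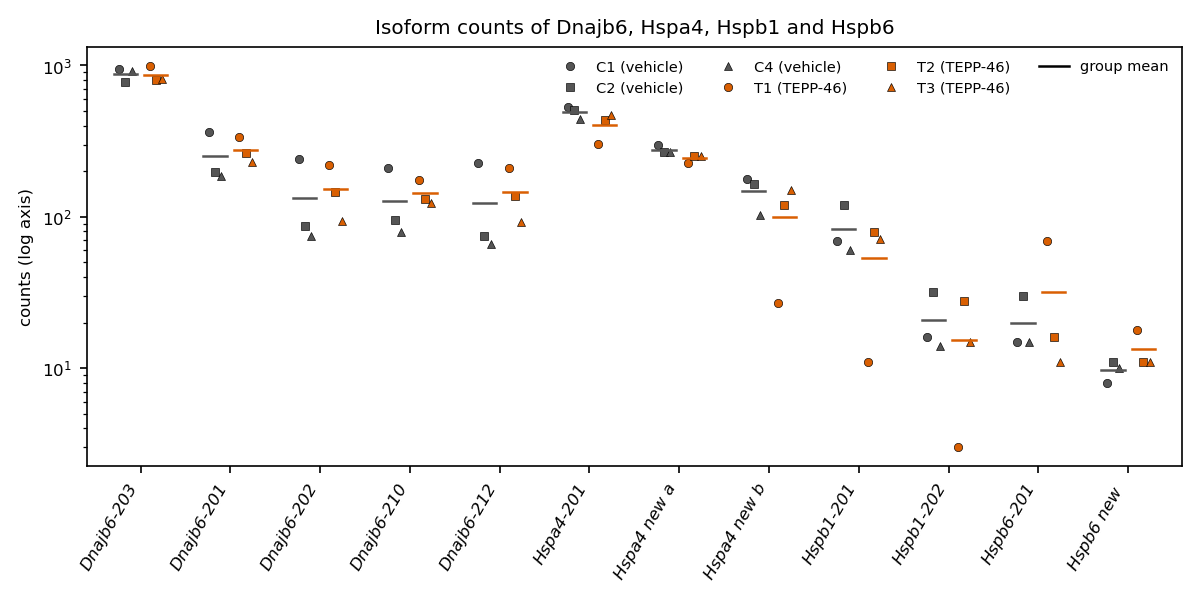
Counts on a log axis of isoforms of Dnajb6, Hspa4, Hspb1 and Hspb6 in each library (grey, vehicle; orange, TEPP-46; bars are group means). Dnajb6-203 stays between 783 and 991 counts while the other Dnajb6 isoforms are high in C1 and T1, the second new Hspa4 isoform drops to 27 counts in T1, and Hspb1-201 drops to 11 counts in T1.

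The regulators and helpers of these chaperones, 85 genes of 7 lists in the table, did not pass the test either. Of 78 tested, 0 had an adjusted p under 0.05, 0 were higher and 3 were lower at an unadjusted p under 0.05, against 1.88% and 4.05% of all genes. The lists' median log2 fold changes were -0.05 for heat shock factors and their regulators (4 tested), 0.02 for HSP90 co-chaperones (18), -0.05 for HSP70 exchange factors and BAG proteins (11), -0.01 for prefoldin and chaperonin helpers (10), -0.02 for ER stress and folding (20), -0.02 for mitochondrial folding and proteases (9) and 0.11 for other stress partners (6).

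The 3 lower genes each came from a different list. Tomm70a, the mitochondrial import receptor that takes clients from HSP70 and HSP90, was at 52.6, 46.8 and 76.4 CPM in vehicle and at 26.7, 33.8 and 32.8 CPM in TEPP-46, with a log2 fold change of -0.93 ± 0.21 (SE), an unadjusted p of 0.00156 and an adjusted p of 0.387. Afg3l2, a protease of the mitochondrial inner membrane, was at 45.5, 36.3 and 44.8 CPM in vehicle and at 24.1, 26.3 and 29.4 CPM in TEPP-46 (log2 fold change -0.68 ± 0.16 SE, adjusted p = 0.434). Bag1, an HSP70 exchange factor, was at 89.5, 37.9 and 178 CPM in vehicle and at 20.3, 35.9 and 32.4 CPM in TEPP-46, a log2 fold change of -1.80 ± 0.54 (SE, adjusted p = 0.657). The groups of all 3 stood apart, those of Bag1 by 37.9 against 35.9 CPM. Genes picked by a small p tend to have such groups. Of all tested genes, 6.22% had groups that stood apart with TEPP-46 lower, on TMM-scaled CPM.

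The other genes with the smallest p of each list had adjusted p-values of 0.839 or more in edgeR. Bag4, a further BAG protein, was at 27.3, 16.5 and 24.0 CPM in vehicle and at 13.9, 13.2 and 19.6 CPM in TEPP-46, with a log2 fold change of -0.55 ± 0.24 (SE), and T3 lay inside the vehicle range. Among heat shock factors, Hsf4 and Hsf2 had log2 fold changes of -0.24 ± 0.22 and -0.10 ± 0.25 (SE), and their binding protein Hsbp1 had 0.02 ± 0.10. The HSP90 co-chaperones Sugt1 and Unc45a had 0.21 ± 0.12 and 0.33 ± 0.19 (SE). The prefoldin subunits Pfdn4, Pfdn6 and Pfdn1, which pass actin and tubulin to the cytosolic chaperonin, had -0.17 ± 0.14, -0.13 ± 0.16 and -0.07 ± 0.13 (SE). The mitochondrial proteases Spg7 and Clpx had -0.39 ± 0.24 and 0.27 ± 0.22 (SE), and Ubb, of the other stress partners, had -0.06 ± 0.10 (SE).

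Genes known to be induced in cytosolic or ER stress gave values of either sign. Bag3, the co-chaperone induced by heat shock factor 1, was at 4.50, 7.72 and 3.59 CPM in vehicle and at 3.48, 3.38 and 3.20 CPM in TEPP-46. Its log2 fold change was -0.67 ± 0.36 (SE, adjusted p = 0.897 in edgeR), and its groups stood apart by 3.59 against 3.48 CPM. Xbp1, the transcription factor of the ER stress response, was at 111, 110 and 114 CPM in vehicle and at 59.8, 94.1 and 109.5 CPM in TEPP-46, with T1 lowest. Creld2, a folding helper of the ER, was at 18.0, 18.9 and 22.3 CPM in vehicle and at 15.8, 15.1 and 17.9 CPM in TEPP-46 (log2 fold change -0.29 ± 0.19 SE, adjusted p = 0.941), and its groups stood apart by 18.0 against 17.9 CPM. Ddit3 (CHOP), the pro-apoptotic arm of that response, was at 61.2, 71.4 and 45.0 CPM in vehicle and at 65.9, 69.0 and 85.0 CPM in TEPP-46. Xbp1 (log2 fold change -0.36 ± 0.20 SE, adjusted p = 0.915 in edgeR) did not pass. Nor did Ddit3 (log2 fold change 0.29 ± 0.19 SE, adjusted p = 0.943 in edgeR). Cryab, a small heat shock protein of oligodendrocytes and astrocytes whose symbol lies outside the rule, was at 181, 201 and 141 CPM in vehicle and at 227, 193 and 210.1 CPM in TEPP-46, lowest in C4, the library with the fewest myelin marker counts, whose part in that value was not tested.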

How the data were processed

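Perihematomal tissue of 3 TEPP-46 and 3 vehicle samples was profiled with nanopore cDNA reads. The authors deposited raw counts per gene and isoform, per the file headers, with their own p-values and log2 fold changes, which are quoted only as the authors' deposited table. The submitters' processing notes name GRCm38 and DESeq 1.10.1, but no source used here gives the aligner, the counting tool or its strand setting. Columns are headed by a letter and a number; the letters were read as vehicle (C) and TEPP-46 (T) from the 2 group names only, and the numbers do not match the numbered samples. A further 12 columns of values per library were not used.

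CPM was computed from the deposited counts and library totals (5286426 to 6025064). Genes and isoforms were tested with edgeR 4.0.16 (filterByExpr, TMM, robust quasi-likelihood F test, Benjamini-Hochberg over all features tested) in R 4.3.3, and isoform usage with diffSpliceDGE. Intervals are 95% and assume the spread that edgeR estimated. DESeq2 1.42.0, other scalings, other filters, a fit without robust estimation and leaving out each library were the alternatives. The scripts were tested on simulated data. Isoform counts of a gene are not independent of each other, and all intervals cover counting error and the spread between these libraries only.

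Positions come from GENCODE M21 on GRCm38 and promoters from RefSeq on GRCm38.p6. Of the 69 genes, 9 share exon bases with another gene on the same strand and 25 on the other strand. Values were given for a fixed set of canonical chaperones, the 7 cytosolic chaperonin subunits among the 69 genes and the 10 members with the smallest p. Up to 3 genes of each helper list with the smallest p and the 5 isoforms with the smallest p were also given. Other members were named for their role or spread after their values were seen. Of the genes this rule takes, 1 is not reported here. The members, lists and tests were chosen with earlier results of these data known.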

Additional observations from a re-analysis of the deposited data

How the results depend on the processing

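No gene and no isoform of the group was called at an adjusted p under 0.05 under any of the alternatives run. The median log2 fold change stayed between -0.05 and -0.01, and 4 or 5 genes had separate groups, depending on the scaling. The 1 gene higher at an unadjusted p under 0.05, Hspa14, became 0 with DESeq2, with no low-count filter, with at least 10 counts in every library, and without any 1 library (0 to 0). The lower count was 0 to 2 with 1 library left out, as Dnajc21 passed without C2, where 10.2% of all genes passed in either direction, and Dnajc1 and Hspa4 without T3, where 5.53% did. Member isoforms at that level numbered 1 of 270 with DESeq2 (2.33% of all isoforms) and, with 1 library left out, 0 of 201 without T2 (4.51%) to 10 of 201 without C1 (7.41%). Without T1 there was 1 of 202 (3.48%), and without T3 there were 6 of 204 (5.47%). Of 32 named genes, 192 of 192 values kept their sign under the other settings and 180 of 192 with 1 library left out. Those that turned had small changes: Hspa8 ranged from -0.123 to 0.0390, Hspa9 from -0.144 to 0.0779, Hsph1 from -0.0390 to 0.0878, Hspb8 from -0.0859 to 0.309, Hspd1 from -0.153 to 0.0177, Dnaja1 from -0.165 to 0.0499, Cct3 from -0.178 to 0.0068, Cct7 from -0.135 to 0.0420 and Cct8 from -0.104 to 0.0330 (log2 fold change). With a minimum of 600 summed counts, 49 members remained, and 67 of the 69 had at least 10 counts in every library. No paired analysis was possible because the column numbers cannot be tied to the numbered samples.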
